A study of Mus musculus with 6 samples.

Results

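Of the 23896 genes to which the deposited transcripts could be assigned, 10 myeloid genes known as targets of PU.1 were followed through erythroid differentiation of MEL cells: Mpo, Elane, Prtn3, Ctsg, Lyz2, Csf1r, Csf2rb, Itgam, Cybb and Tyrobp. They were chosen by name and not by their values, though with earlier results of these data known. Each gene is represented by its transcript with the highest mean count, and a gene with at most 3 counts in every library was taken as not detected. MEL cells are a murine erythroleukemia line held at an early erythroid stage, and DMSO releases them into terminal differentiation. Messenger RNA was sequenced from untreated cultures (day 0) and after 2 and 4 days in 2% DMSO, with 2 biological replicates a day and 6 libraries in all. The same line, grown in minimal essential medium with 10% fetal bovine serum, gave every group, the labels give no genetic change to any of them, and no untreated library of day 2 or 4 was used here, so that days in culture and days in DMSO cannot be told apart. As 1 established leukemia line, it carries the lesions of that line in all 6 libraries.

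PU.1, the product of Spi1, is an ETS-family transcription factor needed for granulocytes, monocytes and macrophages. It binds purine-rich DNA around a GGAA core, often written as the PU box GAGGAA, beside many genes of those cells, and it and the erythroid factor GATA1 oppose each other's activity. In MEL lines Spi1 was typically turned on by retroviral insertion next to the gene, and so these red cell precursors can express it. Among the 10 genes, Mpo, Elane, Prtn3, Ctsg and Lyz2 encode proteins of granules and lysosomes, Csf1r and Csf2rb encode receptor chains for colony stimulating factors, Itgam and Cybb encode a subunit of an adhesion integrin and a subunit of the phagocyte oxidase, and Tyrobp encodes an adaptor of immune receptors.

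Each library held between 35294930 and 53899476 counts on transcripts, so that 3 counts, the limit of detection used here, are worth 0.0604 to 0.0831 CPM (counts scaled to library size with TMM factors) depending on the library. Spi1 itself was counted 4046 and 5959 times in the day 0 libraries, 503 and 580 times at day 2, and 391 and 301 times at day 4. Its mean level was 9.19-fold lower at day 2 than at day 0 (log2 fold change -3.20, SE 0.20, adjusted p = 4.3e-07) and 12.5-fold lower at day 4. Gata1 rose from 202 ± 0.933 to 262 ± 1.44 CPM (SD, n = 2; day 4 against day 0, adjusted p = 0.00772), and Hba-a1, which encodes alpha globin, rose 84.8-fold over the same days. All 12 of 12 erythroid marker genes were above 3 counts, and their summed level was 1091 to 1128 CPM at day 0 and 31121 to 34996 CPM at day 4. Of 8 neutrophil markers, 1 was above 3 counts in any library and S100a8, S100a9, Ngp and Mmp8 were at 0 in every library. Of 9 macrophage markers, 6 were above 3 counts, and Msr1 and C1qa were at 0. The summed level on days 0, 2 and 4 was 5.70 to 5.79, 1.12 to 1.41 and 1.72 to 1.86 CPM. Most of this sum was Cd68, at 4.93 and 4.86 CPM at day 0. Adgre1 of the same list went the other way, with 1 and 2 counts at day 0 and 5 and 13 at day 4. Both are named after their values were seen. Of 7 mast cell markers, 5 were above 3 counts, Tpsab1 and Tpsb2 were at 0, and the sum went from 60.8 to 65.5 CPM at day 0 to between 0.420 and 0.693 CPM at day 4. All 6 of 6 megakaryocyte markers were above 3 counts, at 272 to 278 CPM at day 0 and 560 to 633 CPM at day 4. The B cell list had 2 of 6 genes above 3 counts, with Pax5 and Ms4a1 at 0, and sums of at most 1.57 CPM, and the T cell list had 3 of 7, with Cd2 and Cd8a at 0, and sums of at most 11.6 CPM. The part of any other cell type in the values that follow was not tested, and in bulk RNA fewer cells of a type and less RNA per cell cannot be told apart.

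RefSeq (GRCm38.p6) promoters, here 250 bases before to 50 bases after a listed start of a gene, were found for 7 of the 10 genes. Csf1r, Csf2rb and Tyrobp are named only. The letters GAGGAA, searched on both strands, lay in 6 of the 7 windows. By comparison 28.3% of 32851 promoters of this length hold them. The match began 95 bases before the start in Prtn3, 85 bases before it in Elane and 216 bases before it in Ctsg, and Mpo had matches 247 and 224 bases before its start. Itgam had 3 matches, and Lyz2 had none, which says only that these letters are not in that window. Cybb had 1, 9 bases past the listed start on the opposite strand. The Cybb window, chrX:9469275-9469574 on the minus strand, is set at a start inside the gene span given below, not at its edge. The GATA letters AGATAA, held by 11.2% of all promoters, were found only in Cybb among the 7. GAGGAA and AGATAA share no overlapping match here. Prtn3, Elane and Lyz2 are shown because Prtn3 and Elane are neighbours on chromosome 10, 3137 bases apart, with the PU box at nearly the same place and very different counts, while Lyz2 is the granule gene that has no PU box in its window and had the largest changes between days. The windows are chr10:79879417-79879716 on the plus strand for Prtn3, chr10:79886062-79886361 on the plus strand for Elane and chr10:117282223-117282522 on the minus strand for Lyz2. Each is written 5′ to 3′ with the PU box in capitals.
Prtn3: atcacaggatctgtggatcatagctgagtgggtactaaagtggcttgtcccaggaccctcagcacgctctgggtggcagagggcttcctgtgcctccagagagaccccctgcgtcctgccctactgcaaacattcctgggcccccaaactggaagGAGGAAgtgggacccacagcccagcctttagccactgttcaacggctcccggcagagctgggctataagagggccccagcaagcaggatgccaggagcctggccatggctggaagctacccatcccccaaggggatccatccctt
Elane: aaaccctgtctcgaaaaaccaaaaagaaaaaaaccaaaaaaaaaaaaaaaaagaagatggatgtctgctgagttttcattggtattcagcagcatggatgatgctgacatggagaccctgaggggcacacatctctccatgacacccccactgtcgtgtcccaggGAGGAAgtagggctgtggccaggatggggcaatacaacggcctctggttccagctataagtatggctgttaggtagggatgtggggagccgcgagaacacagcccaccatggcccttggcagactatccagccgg
Lyz2: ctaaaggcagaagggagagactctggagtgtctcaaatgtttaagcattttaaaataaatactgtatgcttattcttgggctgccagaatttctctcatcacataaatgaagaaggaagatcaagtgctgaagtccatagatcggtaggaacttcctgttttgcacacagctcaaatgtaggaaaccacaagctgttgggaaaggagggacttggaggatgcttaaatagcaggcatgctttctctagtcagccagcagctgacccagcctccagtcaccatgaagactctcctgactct
Aligned end to end, the windows of the neighbours Prtn3 and Elane were identical at 46.0% of 324 columns, within the range of the other pairs, which were at 47.5% for either of them with Ctsg and 43.9% and 49.5% for Prtn3 and Elane with Lyz2.

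Of the 10 genes, 6 were detected: Csf2rb, Prtn3, Tyrobp, Csf1r, Lyz2 and Mpo. All 6 passed the filter on low counts (about 10 counts, scaled to depth, in at least 2 libraries) and were tested. Elane, Ctsg, Itgam and Cybb stayed at or under 3 counts in every library, with 18 counts among them in all 6 libraries, and have no test. Because a gene can pass the filter through the day on which it is high, counts of tested genes are given as a description only. A call is an adjusted p below 0.05 in 1 edgeR quasi-likelihood fit over all transcripts. The libraries of a day serve in more than 1 comparison, so the comparisons are not independent of each other.

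At day 2 against day 0, Lyz2 and Csf2rb were higher, which is 2 of 6 tested, where 31.0% of the 12381 tested genes were called higher. Csf1r and Tyrobp were lower, again 2 of 6, where 31.5% of all genes were called lower. At day 4 against day 2, Csf2rb was higher, where 14.0% of all genes were, and Prtn3, Lyz2 and Tyrobp were lower, where 16.2% were. Over the whole time course Csf2rb was higher and Tyrobp was lower, where 35.5% and 36.4% of all genes were called in these directions. Calls were thus common among all genes, and with 6 tested genes nothing is read from the size of these counts. The log2 fold changes of the 6 genes had medians of -0.65, 0.12 and -0.24 in the 3 comparisons, against 0.01, -0.00 and -0.02 over all genes. When libraries were scaled by total counts without TMM factors, the median of all genes moved to 0.21, -0.09 and 0.10. The share called higher and lower then became 40.4% and 23.3% at day 2 against day 0, and 9.92% and 20.5% at day 4 against day 2. The change after day 2 differed from the change before it for Lyz2, Csf1r and Csf2rb, where 30.0% of all genes had such a difference. The spread of calls over the 6 genes can be seen in the plot of changes between days.

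**Figure D1:**
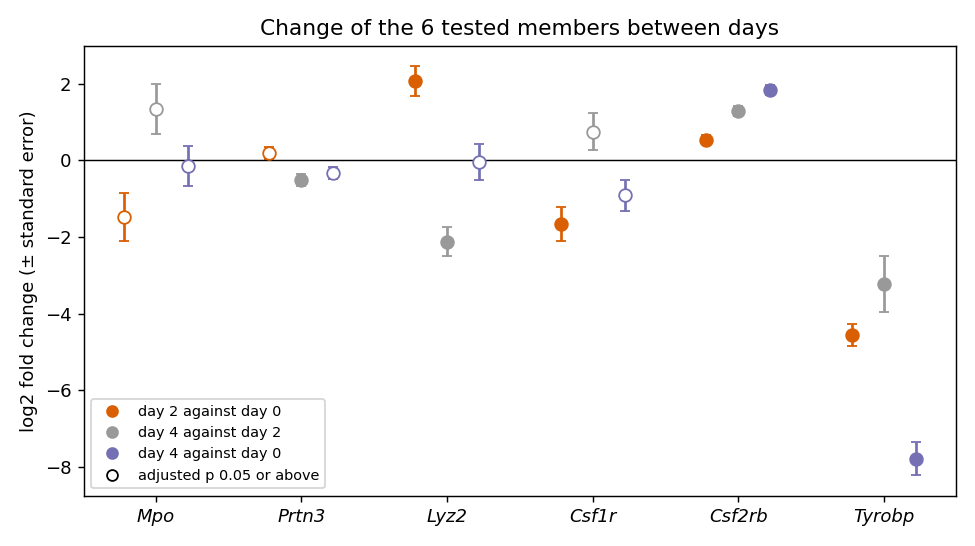
Log2 fold change with its standard error for each of the 6 tested genes, for day 2 against day 0, day 4 against day 2 and day 4 against day 0, with 2 libraries a day. Filled points had an adjusted p below 0.05, and Csf2rb lies above 0 and Tyrobp below 0 in all 3 comparisons, while Lyz2 went up by 2.08 and down by 2.12.

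Prtn3 (NM_011178, chr10:79879667-79883174, positions in mm10 here and for the other genes) encodes proteinase 3, a serine protease of the azurophil granules made by promyelocytes. It was counted 442 and 675 times at day 0, 594 and 671 times at day 2, and 319 and 481 times at day 4. In CPM the libraries stood at 10.8 and 13.6 at day 0, 14.2 and 13.7 at day 2, and 8.84 and 10.6 at day 4, so both day 4 libraries lay under all others, and both day 2 libraries lay over all others by a small margin. From day 2 to day 4 Prtn3 fell by 0.52 on the log2 scale (SE 0.16, adjusted p = 0.0281). The difference between the steps, -0.70 (SE 0.26, adjusted p = 0.0652), was not called. With total counts (-0.99) and with no filter on low counts (-0.72) it was called. Leaving out day 0 replicate 2, which keeps a lone library at day 0, gave a larger difference, -0.87. The values against day 0 were 0.19 at day 2 (SE 0.15, adjusted p = 0.302) and -0.33 at day 4 (SE 0.16, adjusted p = 0.0784), the latter moving to -0.16 without day 0 replicate 2 and being called without day 0 replicate 1, at -0.48, with an adjusted p of 0.00861 in a range of 0.00861 to 0.359 over the alternatives. The call of the later step was lost without day 2 replicate 1 (-0.49), without day 2 replicate 2 (-0.55) and without day 4 replicate 1 (-0.39). With total counts in place of TMM factors the early step was called higher, at 0.39, with an adjusted p of 0.0384 in a range of 0.0384 to 0.85 over the alternatives.

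Elane (NM_015779, chr10:79886312-79888216) encodes neutrophil elastase, the granule protease whose gene starts 3137 bases beyond the end of Prtn3. Its transcript had 2 and 1 counts at day 0, 2 and 1 at day 2, and 2 and 0 at day 4. Ctsg (NM_007800, chr14:56099885-56102574), for the related protease cathepsin G, had 1 count in each day 0 library and 0 in all others. Both are under the limit of detection throughout, so a difference between days was not detectable at this depth. Per kilobase of transcript, which allows genes to be compared, Prtn3 had a level of 11.9 ± 1.91 CPM per kb at day 0 (SD, n = 2), while the 3-count limit was not exceeded for Elane or Ctsg. No other gene of the annotation shared a 50-base stretch with the transcript of any of these 3 genes.

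Mpo (NM_010824, chr11:87793784-87804412) encodes myeloperoxidase, the oxidant-forming enzyme of the same granules. It was counted 6 and 14 times at day 0, 2 and 5 times at day 2, and 9 and 7 times at day 4. The day 2 libraries were the lowest of the 6 and did not overlap with the other days, and days 0 and 4 overlapped. The log2 fold change was -1.48 at day 2 against day 0 (SE 0.63, adjusted p = 0.0578), 1.33 at day 4 against day 2 (SE 0.65, adjusted p = 0.144) and -0.15 over the time course (SE 0.53, adjusted p = 0.806), none of which passed the test. The early value ranged from -2.13 without day 2 replicate 2 to -0.92 without day 0 replicate 2, and it was called without day 0 replicate 1 (-1.84), with an adjusted p of 0.0338 in a range of 0.0338 to 0.371 over the alternatives. The difference between the steps, 2.81 (SE 1.13, adjusted p = 0.0832), was also called without day 0 replicate 1, at 3.16. An antisense gene, Gm11505, overlaps 512 bases of the Mpo exons on the other strand, and since the strand setting of the counting is not given, reads of the antisense gene could be counted here. No transcript named Gm11505 is listed in the deposited counts.

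Lyz2 (NM_017372, chr10:117277541-117282272) encodes the lysozyme M of granulocytes and macrophages, an enzyme that cuts bacterial cell walls. It was counted 18 and 13 times at day 0, 72 and 60 times at day 2, and 17 and 10 times at day 4. Both day 2 libraries stood above all others, and days 0 and 4 overlapped. The mean level on days 0, 2 and 4 was 0.352 ± 0.127, 1.47 ± 0.356 and 0.346 ± 0.177 CPM (SD, n = 2). Lyz2 rose 4.19-fold to day 2 (log2 fold change 2.08, SE 0.38, adjusted p = 0.000699) and was 4.26-fold lower again at day 4 (-2.12, SE 0.39, adjusted p = 0.00286). The difference between these steps was -4.19 on the log2 scale (SE 0.63, adjusted p = 0.000988). Without day 2 replicate 1 the later fall was -1.85, with an adjusted p of 0.0569 in a range of 2.29e-07 to 0.0569 over the alternatives, and leaving out any 1 library gave values from -2.72 to -1.63. Lyz1, the gene of the closely related lysozyme P, shares 15.4% of the 50-base stretches of Lyz2 and had at most 5 counts in a library, so few counts of Lyz2 can come from it.

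Other genes of the granule programme were mostly absent or lower at day 4. Of 22 listed proteins of granules and their partners, 11 did not exceed 3 counts in any library and 7 were tested. At day 4 against day 0, 6 of the 7 were lower and 1 was higher, with a median log2 fold change of -1.28. For this list and those below, 36.4% of all tested genes were called lower and 35.5% higher in that comparison. Srgn, the proteoglycan that packs granule proteases, had the highest level per kilobase of the list at day 0 and fell from 74.0 ± 4.77 to 30.4 ± 0.204 CPM (log2 fold change -1.28, SE 0.12, adjusted p = 2.51e-06). Cst7, an inhibitor of the cathepsins that activate granule proteases, fell from 6.30 ± 0.0677 to 0.360 ± 0.0399 CPM (-4.13, SE 0.24, adjusted p = 1.1e-07). Ltf, for lactoferrin of the secondary granules, was counted 49 and 58 times at day 0 and 3 and 7 times at day 4 (-3.24, SE 0.46, adjusted p = 7.41e-05). The gene that was higher was Prg2, an eosinophil granule protein with 98 counts in all libraries together, named here after its values were seen (1.40, adjusted p = 0.0307). It was counted 8 and 10 times at day 0 and 9 and 35 times at day 4, so the rise rests mostly on day 4 replicate 2.

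**Figure D2:**
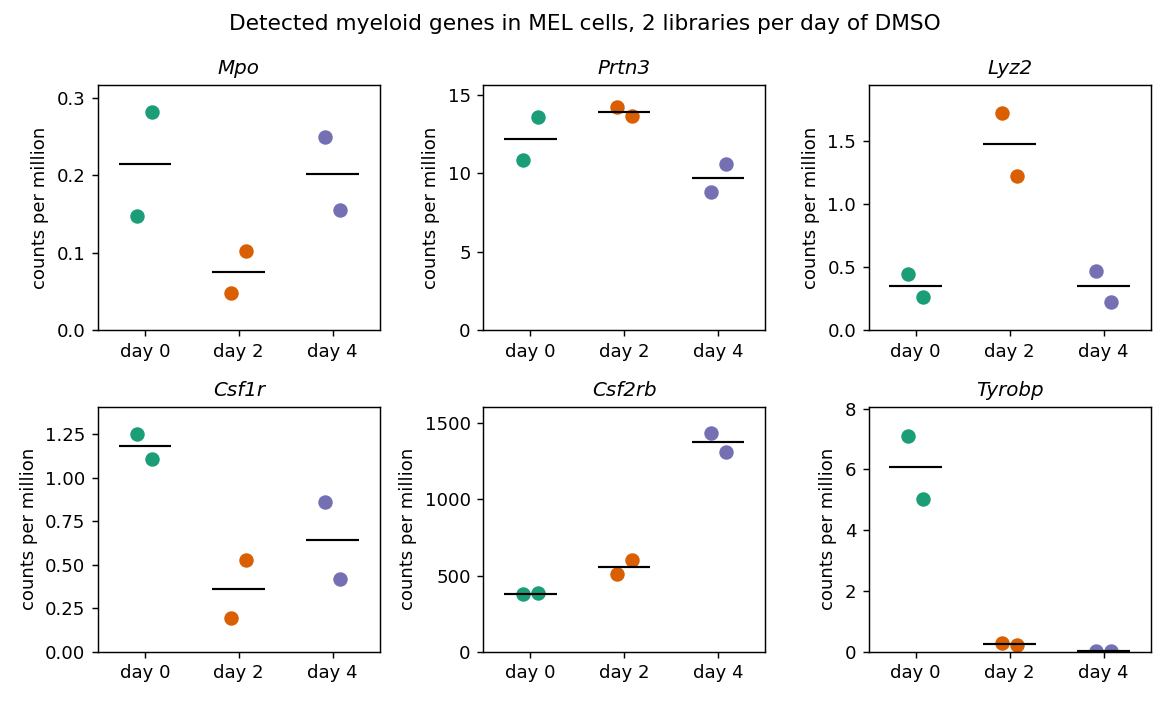
Level in CPM, on linear axes that start at 0, of the 6 detected genes in each of the 2 libraries of days 0, 2 and 4, with a bar at the mean. Csf2rb climbs at each day, Tyrobp drops to near 0 by day 2, Lyz2 is high only at day 2, and Mpo and Csf1r have their lowest mean at day 2.

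Csf2rb (NM_007780, chr15:78325800-78351001) was the most abundant of the 10 genes at every day and rose throughout. It encodes the beta chain shared by the receptors for GM-CSF, IL-3 and IL-5, which carries the signal after ligand is bound by a separate alpha chain. It was counted 15423 and 19099 times at day 0, 21422 and 29496 times at day 2, and 51877 and 59374 times at day 4. The means were 381 ± 4.77, 557 ± 61.7 and 1375 ± 88.7 CPM (SD, n = 2), and the libraries of the 3 days did not overlap. It rose 1.46-fold to day 2 (log2 fold change 0.55, SE 0.13, adjusted p = 0.00352), 2.47-fold from day 2 to day 4 (1.30, SE 0.13, adjusted p = 0.000158) and 3.60-fold in all (1.85, SE 0.13, adjusted p = 4.7e-07). The later step was larger than the earlier one by 0.76 on the log2 scale (SE 0.23, adjusted p = 0.028). This difference lost its call with total counts (0.48) and without day 2 replicate 1 (0.54), day 2 replicate 2 (0.99) or day 4 replicate 1 (0.69), and the early step lost its call without day 2 replicate 2, at 0.43. The rise over the whole time course stayed between 1.78 and 1.91 when any 1 library was left out.

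Csf2rb2, the neighbouring mouse copy whose beta chain serves the IL-3 receptor, lies 20078 bases away from Csf2rb and shares 18.9% of the 50-base stretches of Csf2rb. Reads from the shared stretches could be counted on either gene or on both, and a microRNA gene, Mir7676-2, also lies over 62 bases of the Csf2rb exons. Csf2rb2 was counted 3506 and 3850 times at day 0, 7581 and 10619 times at day 2, and 42545 and 47158 times at day 4. It rose 13.6-fold over the time course (log2 fold change 3.76, SE 0.15, adjusted p = 1.24e-08), with 17.2 ± 1.25 CPM per kb at day 0 and 234 ± 20.4 at day 4, against 80.1 ± 1.00 and 289 ± 18.6 for Csf2rb. Both beta chains thus rose, while the alpha chains they work with were scarce. Csf2ra, the GM-CSF receptor alpha chain, was at 0 counts in all 6 libraries. Il3ra, the IL-3 receptor alpha chain, fell from 0.712 ± 0.105 to 0.271 ± 0.00842 CPM (-1.39, SE 0.35, adjusted p = 0.00429). Il5ra, named after its values were seen, had 15 and 28 counts at day 0 and 0 in both day 4 libraries.

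Csf1r (NM_001037859, on chromosome 18) encodes the receptor tyrosine kinase for M-CSF, on which monocytes and macrophages depend. Its transcript was counted 51 and 55 times at day 0, 8 and 26 times at day 2, and 31 and 19 times at day 4. Both day 0 libraries were above all others, and days 2 and 4 overlapped in CPM, at 0.192 and 0.529 against 0.859 and 0.420. Csf1r fell by 1.66 on the log2 scale to day 2 (SE 0.43, adjusted p = 0.0061). The later values were 0.75 for day 4 against day 2 (SE 0.48, adjusted p = 0.255) and -0.91 for day 4 against day 0 (SE 0.41, adjusted p = 0.0635). The steps differed by 2.41 (SE 0.81, adjusted p = 0.0441). The fall rests in part on day 2 replicate 1, without which it was -1.15 with an adjusted p of 0.0749, in a range of 2.05e-05 to 0.0749 over the alternatives, and without day 2 replicate 2 it was -2.60. The value at day 4 against day 0 was called with no filter on low counts (-0.91) and without day 4 replicate 1 (-1.48). The difference of the steps was not called with DESeq2 (2.52), with total counts (2.13), or without day 2 replicate 1 (1.39), day 2 replicate 2 (4.29) or day 4 replicate 1 (1.83). The replicate number as a block gave 2.39, with an adjusted p of 0.0672 in a range of 0.00279 to 0.374 over the alternatives.

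Of the 13 other colony stimulating factors and receptors listed, 7 did not exceed 3 counts in any library, among them Csf3, at 0 everywhere, and its receptor Csf3r, with 1 count in all. Of the 6 tested, 2 were higher and 3 lower at day 4 against day 0. Besides Csf2rb2, the gene that rose was Flt3l, the ligand of the FLT3 receptor, from 9.80 ± 0.194 to 16.8 ± 2.96 CPM (0.78, SE 0.15, adjusted p = 0.000585).

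**Figure D3:**
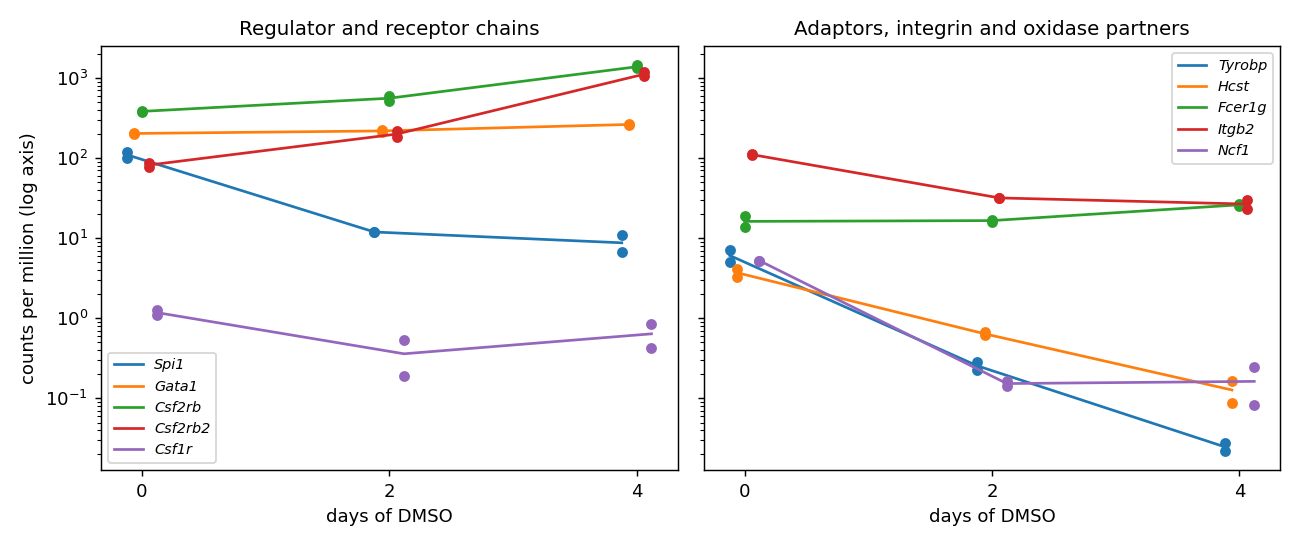
CPM on a log axis against days of DMSO for the regulators Spi1 and Gata1 with Csf2rb, Csf2rb2 and Csf1r (left), and for Tyrobp, Hcst, Fcer1g, Itgb2 and Ncf1 (right). Points are the 2 libraries of a day, shifted sideways for sight, and lines join the means, which part after day 0 as Csf2rb and Csf2rb2 climb and Spi1, Tyrobp, Hcst and Ncf1 drop.

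Itgam (NM_001082960, chr7:128062640-128118491) encodes the alpha M chain (CD11b) of the integrin Mac-1, the adhesion receptor of granulocytes and macrophages. It had 3 counts in each day 0 library, 1 and 0 at day 2, and 0 in both day 4 libraries, and was not detected by the limit used. A predicted gene, Gm49368, overlaps 3450 bases of its exons on the same strand and shares 72.4% of its 50-base stretches. No transcript of that name is listed in the deposited counts. The partner chain of Itgam was measured well. Itgb2, the beta 2 chain (CD18) that Mac-1 shares with the other leukocyte integrins, was counted 4540 and 5418 times at day 0 and 1093 and 1038 times at day 4. It fell from 110 ± 1.50 to 26.6 ± 5.20 CPM (-2.05, SE 0.13, adjusted p = 2.51e-07). Itgal, the alpha chain (CD11a) that pairs with it in LFA-1, fell from 50.3 ± 3.11 to 7.75 ± 1.16 CPM (-2.69, SE 0.14, adjusted p = 5.91e-08). Of 9 listed leukocyte integrins and adhesion partners, 7 were tested. All 7 were lower at both day 2 and day 4 against day 0, with a median of -2.05 at day 4. Of all tested genes, 31.5% and 36.4% were called lower on these days. Among them, Selplg, the ligand of P-selectin, fell by 2.18 on the log2 scale (SE 0.14, adjusted p = 1.93e-07), and Tln1, for the integrin-activating cytoskeletal protein talin, had the highest level per kilobase of the list at day 0 and fell from 1263 ± 16.2 to 558 ± 18.2 CPM.

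Cybb (NM_007807, chrX:9435252-9487766) encodes gp91phox, the catalytic subunit of the phagocyte NADPH oxidase that makes superoxide. A single count was found, in day 4 replicate 2, and 0 in the other 5 libraries. The remaining parts of the oxidase were present. All 7 listed partners of the NADPH oxidase were tested. Against day 0, 7 were lower at day 2 and 6 at day 4, where 31.5% and 36.4% of all genes were. The median was -0.98 at day 4. Rac2, the GTPase of the complex, had the highest level per kilobase and fell from 198 ± 4.77 to 100 ± 6.22 CPM (-0.98, SE 0.10, adjusted p = 7.85e-06). Ncf1, for the organizer subunit p47phox, was counted 214 and 259 times at day 0, 6 and 8 times at day 2, and 3 and 11 times at day 4 (-4.91, SE 0.33, adjusted p = 2.92e-07). Hvcn1, for the proton channel that balances the charge of the oxidase, was counted 46 and 72 times at day 0 and 7 and 0 times at day 4 (-3.85, SE 0.62, adjusted p = 0.000193).

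Tyrobp (NM_011662, chr7:30413782-30417582) had the largest change of the 6 tested genes. It encodes DAP12, the small membrane adaptor with an activation motif through which TREM receptors and other immune receptors signal to the kinase SYK. It was counted 290 and 250 times at day 0, 12 and 11 times at day 2, and once in each day 4 library. The days did not overlap. The mean level dropped from 6.07 ± 1.47 CPM before DMSO to 0.256 ± 0.0449 after 2 days (SD, n = 2), a 23.8-fold fall (log2 fold change -4.56, SE 0.29, adjusted p = 5.65e-07). Day 4 is under the limit of detection, and the ratio of day 0 to day 4, 540 counts against 2, was 243 with an exact 95% counting interval of 66.9 to 2011. From day 2 to day 4 the fitted change was -3.22 (SE 0.73, adjusted p = 0.00794), and the count ratio, 23 against 2, was 10.3 with an interval of 2.54 to 90.1. Such intervals cover counting error only. The difference between the steps, 1.34 (SE 1.36, adjusted p = 0.489), was not called. The later step lost its call without day 2 replicate 1 (-3.05) or day 4 replicate 2 (-3.07), while leaving out any 1 library kept the change from day 0 to day 2 between -4.80 and -4.30.

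Among the other adaptors and kinases tested, most were lower at day 4 than at day 0. Hcst, for the adaptor DAP10, went from 3.70 ± 0.590 over 0.641 ± 0.0425 to 0.127 ± 0.0551 CPM on days 0, 2 and 4, and fell in all 3 comparisons (day 4 against day 0, -4.87, SE 0.35, adjusted p = 4.37e-07). Fcer1g, the gamma chain that couples Fc receptors to the same kinase, was at 16.2 ± 3.58, 16.6 ± 0.641 and 26.0 ± 1.05 CPM, and was higher at day 4 than at day 0 (0.69, SE 0.15, adjusted p = 0.00169). Of 19 listed immunoreceptor adaptors and kinases, 5 did not exceed 3 counts and 12 were tested, of which 11 were lower and 1, Fcer1g, was higher at day 4 against day 0, with a median of -1.30. Lcp2, the scaffold SLP-76, fell from 54.3 ± 0.111 to 2.70 ± 0.0215 CPM (-4.33, SE 0.16, adjusted p = 9.69e-09). Btk, a TEC-family kinase that acts after SYK, had the highest level per kilobase of the list and fell from 262 ± 29.8 to 76.5 ± 11.2 CPM (-1.78, SE 0.13, adjusted p = 6.53e-07). Fgr, a SRC-family kinase, was counted 46 and 54 times at day 0 and 0 and 2 times at day 4, a ratio of 45.0 with a counting interval of 12.1 to 377. The TREM receptors that DAP12 serves were scarce, with Trem1 at 0 in all libraries, Trem2 at 2 and 6 counts and Trem3 at 2 and 4 counts at day 0, these being named after their values were seen.

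Receptors of phagocytes included both falls and rises. Of 16 listed, 7 did not exceed 3 counts and 7 were tested, of which 5 were lower and 2 higher at day 4 against day 0. The lower genes included the Fc receptors for antibody, with Fcgr1 falling from 18.1 ± 1.54 to 1.49 ± 0.551 CPM (-3.62, SE 0.24, adjusted p = 2.58e-07), Fcgr3 by 3.45 on the log2 scale (SE 0.20, adjusted p = 1.21e-07) and Fcgr2b by 2.25 (SE 0.19, adjusted p = 1.52e-06). Ccr2, the chemokine receptor of monocytes, rose from 21.7 ± 1.16 to 66.9 ± 10.0 CPM (1.62, SE 0.13, adjusted p = 9.11e-07). Siglec1, a sialic acid receptor of macrophages, was counted 3 and 2 times at day 0, 107 and 150 times at day 2, and 209 and 490 times at day 4. The ratio of day 4 to day 0, 699 counts against 5, was 155 with an exact counting interval of 66.3 to 480.

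Over the 6 lists together, 86 other myeloid genes were listed, of which 31 did not exceed 3 counts in any library (18 were at 0 throughout), 9 were above 3 counts but did not pass the filter, and 46 were tested. At day 2 against day 0, 4 were higher and 38 lower, with a median log2 fold change of -1.19. Of all tested genes, 31.0% were called higher and 31.5% lower. At day 4 against day 2, 5 were higher and 10 lower, where 14.0% and 16.2% of all genes were. The median was -0.22, or -0.15 with genes at 0 counts set to the bound given by 3 counts. At day 4 against day 0, 6 were higher and 38 lower, with a median of -1.34, where 35.5% and 36.4% of all genes were called. Whether the members differ from these genes as a list was not tested. With a size limit of 1 on the log2 scale as well, 27 of the other genes were called at day 2 against day 0 (3 higher, 24 lower) and 6 at day 4 against day 2.

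**Figure D4:**
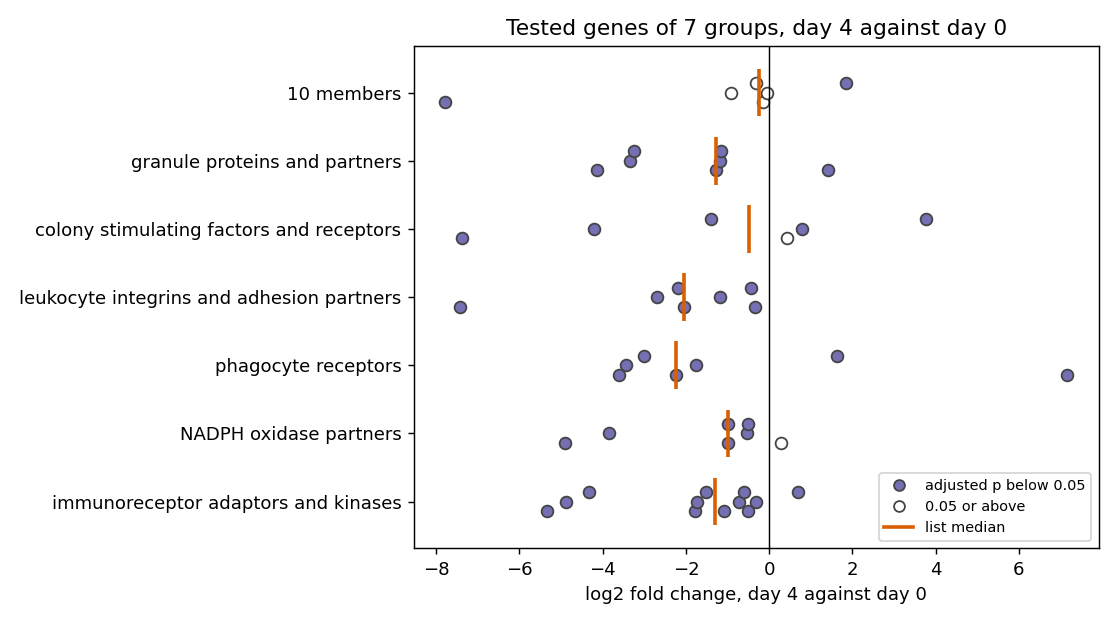
Log2 fold change at day 4 against day 0 for each tested gene among the 10 members and 6 lists of other myeloid genes, with a bar at each list's median, and filled points for an adjusted p below 0.05. The medians of the lists lie at -1.28, -0.48, -2.05, -2.25, -0.98 and -1.30 from granule proteins down to adaptors and kinases, and that of the members at -0.24.

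Among the listed transcription factors of the myeloid lineages 9 were tested, of which 1 was higher and 7 were lower at day 4 against day 0. Myb, for the progenitor factor c-Myb, had the highest level per kilobase and fell from 385 ± 20.1 to 29.4 ± 5.82 CPM (-3.72, SE 0.17, adjusted p = 2.7e-08). Spi1 fell by 3.66 on the log2 scale (SE 0.20, adjusted p = 9.11e-08), and between days 2 and 4 its value was -0.46 (SE 0.20, adjusted p = 0.0992). Cebpb, which acts beside PU.1 at granulocyte and monocyte genes, fell by 1.62 (SE 0.13, adjusted p = 1.05e-06). Cebpe, a factor of granulocyte maturation under the 100-count limit and named after its values were seen, was counted 31 and 50 times at day 0 and 2 and 0 times at day 4, a larger fitted change than that of Myb (-5.02, SE 0.67, adjusted p = 4.3e-05). Runx1, a factor of early blood progenitors, rose by 0.56 (SE 0.12, adjusted p = 0.00112).

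In order of level per kilobase of transcript at day 0, Csf2rb stood first at 80.1 ± 1.00 CPM per kb (SD, n = 2). Prtn3 at 11.9 ± 1.91 and Tyrobp at 10.8 ± 2.60 came next and did not differ beyond their spread. Csf1r at 0.305 ± 0.0260 and Lyz2 at 0.267 ± 0.0962 likewise lay within their spread of each other, and Mpo was at 0.078 ± 0.0347. By day 4 Csf2rb was at 289 ± 18.6 and Prtn3 at 9.50 ± 1.24, and Lyz2 at 0.263 ± 0.134 and Csf1r at 0.165 ± 0.0802 overlapped in their spread, followed by Mpo at 0.0735 ± 0.0243. Tyrobp had moved from among the leading 3 to the floor.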

How the data were processed

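Reads of stranded mRNA libraries (TruSeq) were trimmed with cutadapt and aligned to mm10 with TopHat by the authors, and HTSeq and DESeq2 are also named in the submitters' processing notes. The authors deposited unnormalized counts per RefSeq transcript for each library. The strand setting, overlap mode and annotation release of the counting are not given in the sources used here. Hba-a1 and Hba-a2 have nearly equal counts, so reads of near-identical copies may be counted on each. Reads on no feature are listed beside the counts and were left out, as were 4 further classes at 0. They were 50.5% to 58.4% of these reads and the transcript counts together, where a read may be counted on several transcripts. By library the share was 50.5% and 54.1% at day 0, 53.8% and 52.7% at day 2, and 58.1% and 58.4% at day 4.

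Of 32654 transcripts, 32199 were named from RefSeq, 187 from GENCODE and 268 not at all. Counts were tested with edgeR 4.0.16 in R 4.3.3 (TMM factors of 0.921 to 1.07, filterByExpr by day, 18351 transcripts kept, glmQLFit and glmQLFTest, 1 mean per day, 6 libraries, common biological CV 10.4%). Benjamini-Hochberg adjustment covered all transcripts kept, with a threshold of 0.05. The SE is the log2 fold change divided by the square root of F. The fit was tested on simulated data, of which no result is given here.

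The members, lists and tests were chosen with earlier results of these data known. Besides the members, the genes named are, per list, the highest per kilobase at day 0 and up to 3 rises and 3 falls at day 4 against day 0 among called genes with at least 100 counts, with Spi1, Gata1 and alpha globin as checks and genes that overlap, neighbour or resemble a member. Others are said to be named after their values were seen. Alternatives were DESeq2 1.42.0, relative log expression factors, total counts, no filter, a fit of the compared days alone, a replicate block, a size limit of 1 on the log2 scale, 1 transcript per gene, and leaving out each library.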

Additional observations from a re-analysis of the deposited data

How the results depend on the processing

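Of 304 values of single members under the alternatives, 272 kept their direction and side of the threshold, 18 lost a call, 9 gained one and 5 changed sign. The sign changes were of day 4 against day 0 values that were never called: Mpo, at 0.41 without day 0 replicate 2 and 0.18 without day 4 replicate 2 in a range of -0.51 to 0.41, and Lyz2, at 0.073 with total counts, 0.34 without day 0 replicate 1 and 0.44 without day 4 replicate 2 in a range of -0.64 to 0.44. Leaving out 1 library at a time gave 3 to 5 members called at day 2 against day 0, 1 to 4 at day 4 against day 2 (1, Csf2rb, without day 2 replicate 1), 2 to 3 at day 4 against day 0 and 1 to 4 for the difference between the steps (1, Lyz2, without either day 2 library or day 4 replicate 1). For the other myeloid genes the ranges were 40 to 44, 9 to 18 and 41 to 45, with 9 at day 4 against day 2 without day 2 replicate 1, and a size limit of 1 on the log2 scale gave 27 at day 2 against day 0 and 6 at day 4 against day 2. The cause of these shifts was not tested. Where a day keeps a lone library, it is assumed to vary like the others.

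With the replicate number as a block, 4, 4 and 2 members and 42, 16 and 44 other myeloid genes were called in the 3 comparisons, and 2 members for the difference between the steps, where Csf1r alone lost its call. The labels do not say that a number marks a shared batch. Over transcripts, the replicate differences correlated at 0.03 for days 0 and 2, 0.03 for days 0 and 4, and 0.12 for days 2 and 4. Such correlations cannot settle whether a number marks a shared culture or batch, since a weak shared effect could leave them low. Depth limits Mpo, Elane, Ctsg, Itgam, Cybb, and Tyrobp at day 4, where a few counts decide the value.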
